A study of Mus musculus with 4 samples.

Results

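Annexins, S100 proteins and galectins are small families of cytosolic proteins, most of which bind calcium or membranes or, for galectins, sugar chains. The 10 genes described here are the annexins Anxa1, Anxa2, Anxa4 and Anxa5, the S100 genes S100a4, S100a6, S100a10 and S100a11, and the galectins Lgals1 and Lgals3. They were chosen as effector memory genes whose signal was raised on the array of splenic deltaDC cells, so the spleen values below describe that choice and are not a finding of their own. By gene name they had 13 probes of the 55681 on the array, and they are 10 of 22296 named genes.

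The RNA came from regulatory T cells (Tregs), the CD4-positive subset that dampens immune reactions and depends on the transcription factor Foxp3. The mice were C57BL/6 males, wild-type (WT) or deltaDC, from which both spleen and thymus were taken, and the labels give no age. The labels do not spell out deltaDC, a name used in the field for mice that lack dendritic cells, and name neither its alleles nor a promoter. Each genotype and organ made 1 group, so that there were 4 groups with 1 array each, from cells pooled from 3 mice per genotype. Splenic CD4 cells were isolated by negative selection and thymocytes were depleted with an anti-CD8 antibody, before both were sorted as DAPI-negative, CD4-positive and CD25-positive cells. Foxp3 protein was not part of the sort.

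No group had a replicate array, so no test or p-value could be had, and no array could be left out. The error given is the spot error, the SD of log2 signal between repeated spots of a probe, read at the signal in question and combined over the arrays compared. It holds no variation between mice, pools or labelling reactions. A scaled signal is the scanner intensity after all 4 arrays were set to a common 75th percentile. The number of arrays limits how precise any value is. Measured, of a comparison, means well above background on each of the arrays set side by side. In a count of genes, higher or lower means a difference of at least 2-fold. Of a single gene with its value given, these words state the direction only. Between 48.1% and 49.9% of probes were well above background on an array, and 0 spots were saturated. All 10 members were well above background on all 4 arrays. In this bulk RNA fewer cells of a type and less RNA per cell cannot be told apart.

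In T cells these genes are known as part of the programme of antigen-experienced cells. Annexins bind phosphatidylserine on membranes when calcium rises. Most S100 proteins are calcium sensors, and S100 proteins pair with annexins or cytoskeletal proteins. Of the members, Anxa2 and S100a10 are known to form a complex at the cell surface. Galectins are secreted without a signal peptide and bind galactose-bearing sugars on receptors such as CD45 and CD44.

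The probes are 60 bases long. For S100a4, S100a6 and Anxa1 a probe in the coding part of the transcript is shown, the first pair because these neighbouring genes are related in sequence, and Anxa1 because its probes are set against each other below. Each is written 5′ to 3′ on the sense strand. The capitals mark the longest run that the S100a4 and S100a6 probes share, 11 bases, which was also the longest among all 78 pairs of member probes.
S100a4 at chr3:90409734-90409793 (mm9, plus strand): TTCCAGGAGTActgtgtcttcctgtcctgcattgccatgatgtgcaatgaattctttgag
S100a6 at chr3:90418160-90418219 (mm9, plus strand): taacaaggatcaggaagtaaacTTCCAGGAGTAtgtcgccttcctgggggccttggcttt
Anxa1 at chr19:20449722-20449781 (mm9, minus strand): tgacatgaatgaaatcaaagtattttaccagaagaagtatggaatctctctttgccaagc

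All 10 members had their highest signal on the deltaDC spleen array. 7 of them (Anxa1, S100a4, S100a6, S100a10, S100a11, Lgals1 and Lgals3) stood at least 2-fold above each of the other arrays there, beside 2.47% of the 12286 genes above background on all arrays (304 genes). WT spleen was at least 2-fold below every other array for 3 members (Anxa2, Anxa4 and Lgals3), beside 2.36% of the same genes. Of the 10, 9 were at least 2-fold higher on deltaDC than on WT spleen, the contrast that chose them, where 6.42% of 12529 genes were (804 genes). With the median over each gene's probes the count was 8, Anxa4 then standing at 0.60. Their median log2 difference was 2.25, against 0.00 over all genes measured.

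**Figure D1:**
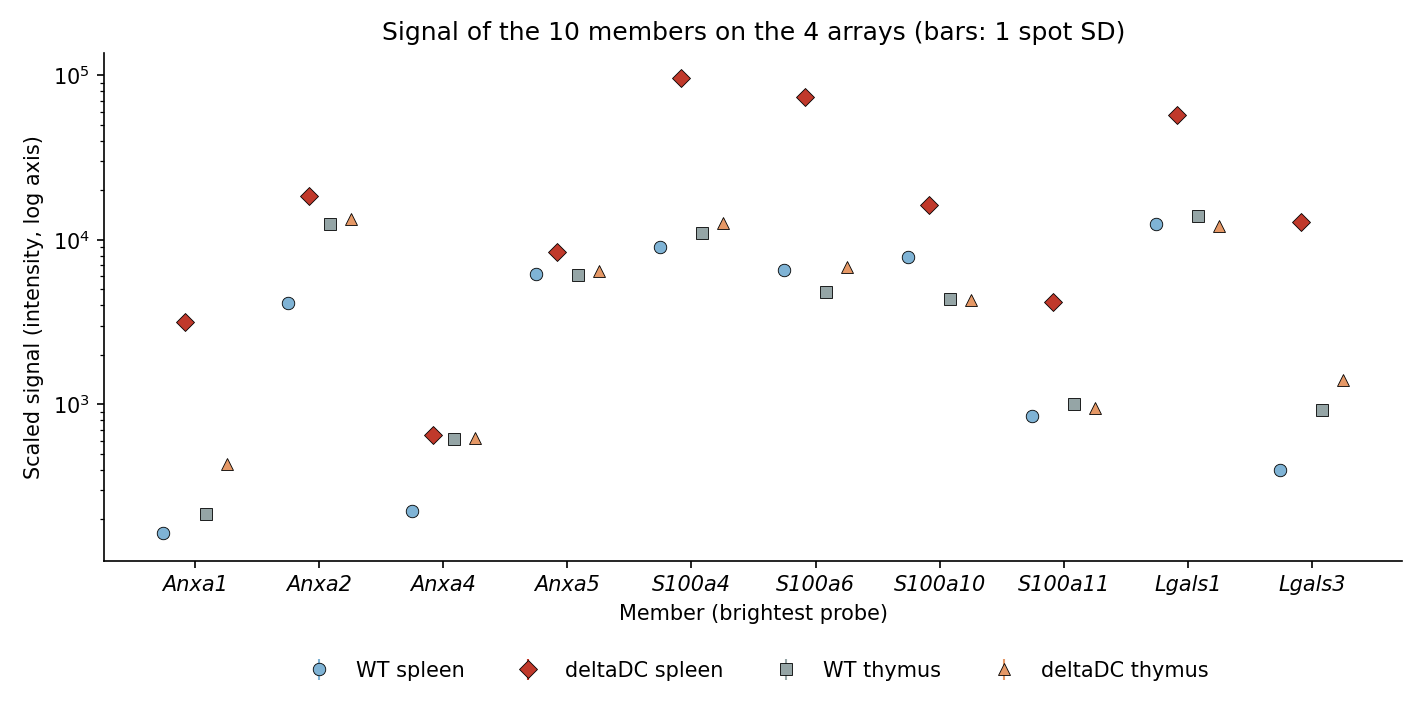
Scaled signal (log axis) of the brightest probe of each member on the 4 arrays, with 1 spot SD as the error bar, which is mostly smaller than the marker. The deltaDC spleen point is the highest of each gene, and for Anxa2 and Anxa4 WT spleen is the point that stands apart, below the others.

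Anxa1, whose product is secreted and acts on formyl peptide receptors, showed the largest spleen difference of the annexins. Its brighter probe (chr19:20447938-20447997, mm9, minus strand) had scaled signals of 165 (WT) and 3179 (deltaDC) in spleen, and 215 (WT) and 431 (deltaDC) in thymus. The deltaDC spleen array stood 19.2-fold above WT spleen, a log2 difference of 4.27 ± 0.11 (spot error, 1 array each). In thymus the deltaDC array was 2.01-fold above WT, at 1.01 ± 0.11. All 4 arrays were further apart from their neighbours in this order than 2 spot errors. The coding probe shown above gave 31.3, 460, 35.2 and 67.3 in the same order of arrays. Its differences were 3.88 ± 0.26 in spleen and 0.93 ± 0.27 in thymus, just under 2-fold in the latter. Both probes of Anxa1 had the same order of arrays. By the coding probe, however, WT thymus and WT spleen differed by 0.17 ± 0.33, within 2 spot errors.

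Anxa2, which binds actin and membrane and holds plasminogen at the cell surface together with S100a10, followed another pattern. The scaled signals were 4123 (WT) and 18521 (deltaDC) in spleen, and 12394 (WT) and 13317 (deltaDC) in thymus (chr9:69339532-69339591, mm9, plus strand). WT spleen was the array apart, 4.49-fold below deltaDC spleen (2.17 ± 0.06) and 3.01-fold below WT thymus (1.59 ± 0.07). Both thymus arrays differed by 0.10 ± 0.06, within 2 spot errors of each other. Anxa4, another membrane-binding annexin, had the same shape at 225, 647, 618 and 624 (chr6:86686883-86686942, mm9, minus strand). Its spleen difference was 1.52 ± 0.11, or 2.88-fold, and its WT thymus signal was 2.75-fold that of WT spleen. The deltaDC spleen signal of Anxa4 was only 1.04-fold that of deltaDC thymus, less than 2 spot errors. A second Anxa4 probe was not well above background on any array and gives no ratio.

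Anxa5, known for its binding of exposed phosphatidylserine on dying cells, varied least. It read 6172 (WT) and 8379 (deltaDC) in spleen, and 6130 (WT) and 6459 (deltaDC) in thymus (chr3:36348065-36348124, mm9, minus strand). The spleen difference, 0.44 ± 0.06 or 1.36-fold, exceeded 2 spot errors but was under 2-fold, which makes Anxa5 the member that the name of raised gene fits least. The other three arrays lay within 1.05-fold of one another.

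S100a4, a marker of memory T cells whose product binds non-muscle myosin, was measured by 2 probes. The brighter one (chr3:90409908-90409967, mm9, plus strand) had scaled signals of 9017 (WT) and 96090 (deltaDC) in spleen, and 10995 (WT) and 12631 (deltaDC) in thymus. The coding probe shown above gave 7172, 84604, 8603 and 9552. Both put deltaDC spleen far above the other arrays, which lay within 1.40-fold of one another for the brighter probe. The genotype difference in spleen was 3.41 ± 0.07 by the first probe and 3.56 ± 0.07, or 11.8-fold, by the second. In thymus it was 0.20 ± 0.06 and 0.15 respectively, under 2-fold in both cases.

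S100a6, or calcyclin, which binds the ubiquitin ligase adaptor encoded by Cacybp, had the same shape. Its signals were 6546 (WT) and 73398 (deltaDC) in spleen, and 4842 (WT) and 6795 (deltaDC) in thymus. The spleen difference was 3.49 ± 0.06 or 11.2-fold, close to that of S100a4, and the thymus one 0.49 ± 0.06 or 1.40-fold. Unlike S100a4, S100a6 was lower on WT thymus than on WT spleen, at a log2 difference of -0.44 ± 0.07.

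S100a10, the partner of Anxa2, read 7877 (WT) and 16227 (deltaDC) in spleen, and 4342 (WT) and 4275 (deltaDC) in thymus (chr3:93368437-93368496, mm9, plus strand). It just passed 2-fold in spleen (2.06-fold, 1.04 ± 0.07). In WT mice S100a10 was 1.81-fold lower on the thymus than on the spleen array (-0.86 ± 0.07), whereas Anxa2 was 3.01-fold higher, so both genes of this complex took opposite directions between the organs. S100a11, which binds Anxa1, read 852 (WT) and 4201 (deltaDC) in spleen, and 998 (WT) and 945 (deltaDC) in thymus (chr3:93330022-93330081, mm9, plus strand). It was 4.93-fold higher on deltaDC than on WT spleen (2.30 ± 0.08), and its other three arrays lay within 1.17-fold of one another.

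Lgals1, a galectin that Tregs secrete and that binds CD45 and CD7, had scaled signals of 12533 (WT) and 57270 (deltaDC) in spleen, and 13847 (WT) and 12121 (deltaDC) in thymus (chr15:78760566-78760625, mm9, plus strand). The spleen difference was 4.57-fold (2.19 ± 0.07), and the other three arrays lay within 1.14-fold of one another. In thymus Lgals1 was the member with the lowest genotype difference, -0.19 ± 0.06, opposite in sign to spleen. Lgals3, the galectin with a collagen-like tail that cross-links sugars made by Mgat5, had the largest spleen difference of the members. It read 400.0 (WT) and 12879 (deltaDC) in spleen, and 927 (WT) and 1401 (deltaDC) in thymus (chr14:48005414-48005473, mm9, plus strand). That is 32.2-fold in spleen (5.01 ± 0.08), rank 4 of 12529 genes, and 1.51-fold in thymus (0.60 ± 0.08). Lgals3 was also 2.32-fold higher on WT thymus than on WT spleen (1.21 ± 0.10).

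**Figure D2:**
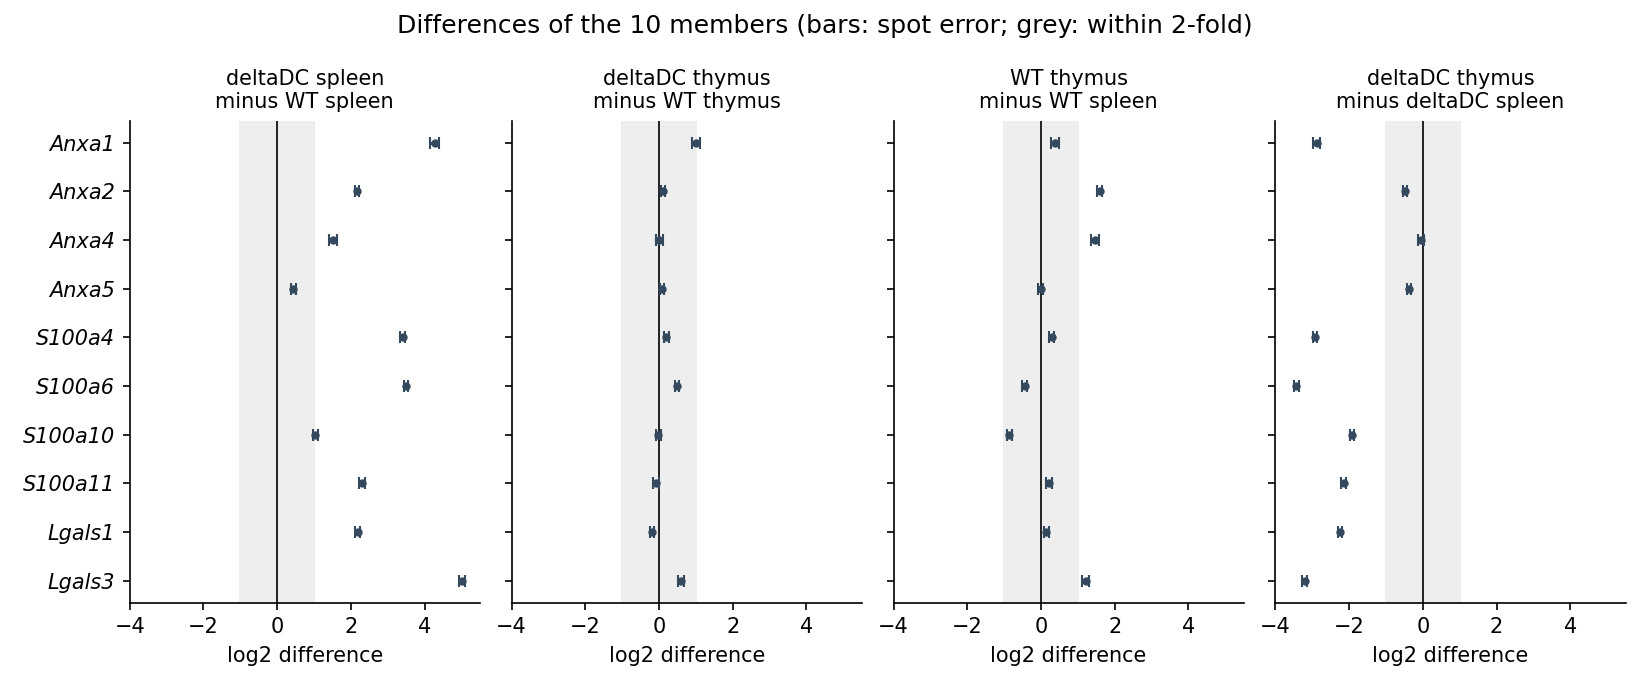
Log2 difference of each member in the 4 comparisons (horizontal axis), with the spot error as the bar and the range within 2-fold in grey. Outside the grey range lie 9 members in the first panel, 1 (Anxa1, at its edge) in the second, 3 in the third and 7 in the fourth.

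The thymus comparison is not the contrast that chose the members, although the mice of each genotype were the same. The members were chosen with earlier results of these data known, so the thymus values are not an independent check. In the thymus comparison, 1 of 10 members differed at least 2-fold between deltaDC and WT, beside 1.60% of 13039 genes (208 genes). That member was Anxa1, at 2.01-fold by its brighter probe. The call was lost with another background correction (normexp, 0.85) and with the median over its probes (0.97). The members' median log2 difference was 0.09, against 0.05 over all genes measured, and their values ran from -0.19 (Lgals1) to 1.01 (Anxa1). After Anxa1, the members furthest from 0 were Lgals3 at 0.60 and S100a6 at 0.49. S100a10 (-0.02 ± 0.07), S100a11 (-0.08 ± 0.08), Anxa2, Anxa4 (0.01 ± 0.09) and Anxa5 (0.08 ± 0.06) were within 2 spot errors of no difference.

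Each member's spleen difference exceeded its thymus difference, by 0.37 ± 0.09 for Anxa5 and by 1.07 ± 0.09 (S100a10) to 4.41 ± 0.12 (Lgals3) for the others. For 9 of 10 the excess was at least 2-fold, beside 6.62% of 12286 genes. With 1 array per group this difference between the organs was not tested, and the spleen side of it is the contrast that chose the genes.

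**Figure D3:**
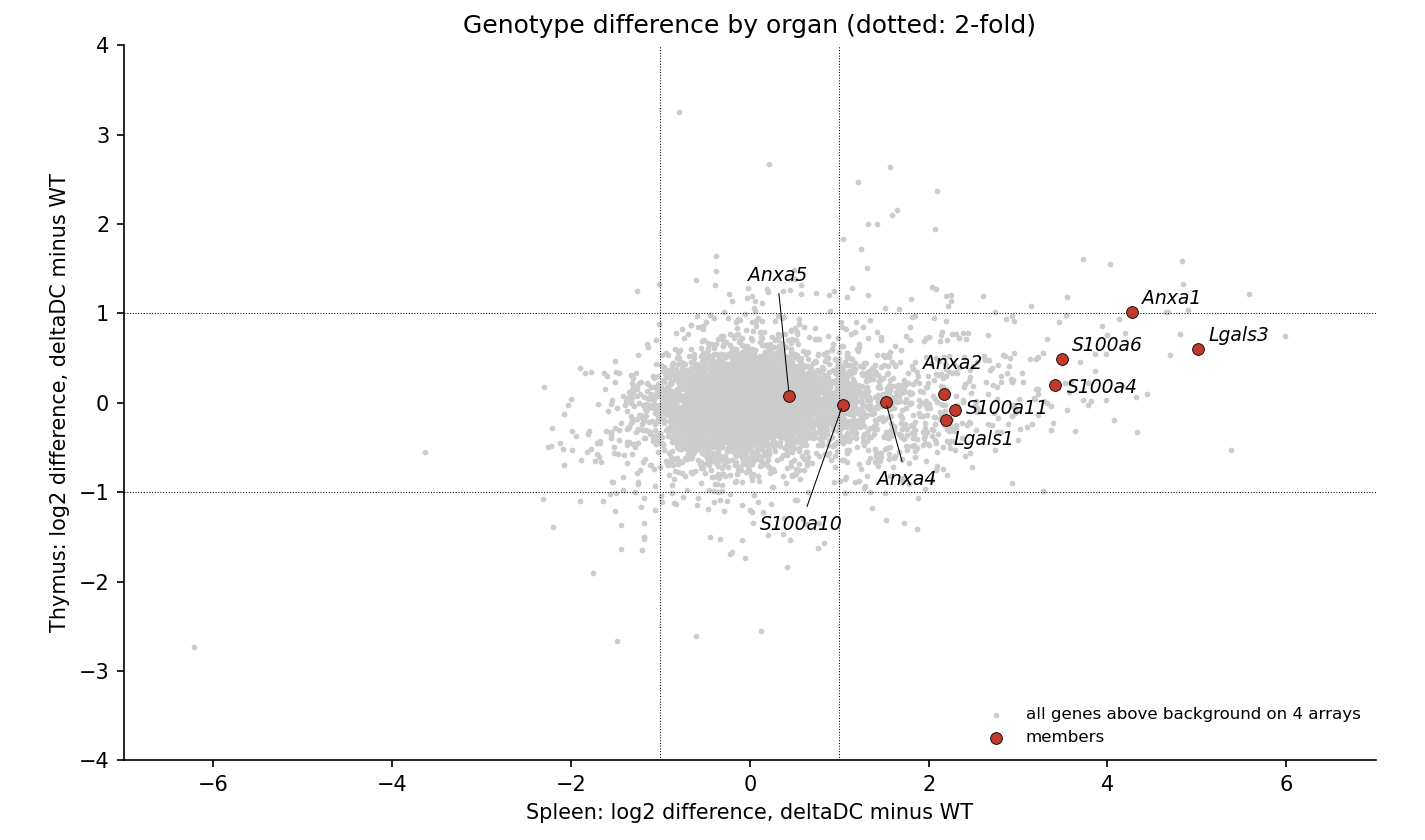
Genotype difference (deltaDC minus WT, log2) in spleen on the horizontal and in thymus on the vertical axis, for the members (red) and every gene above background on all 4 arrays (grey), with dotted lines at 2-fold. The members spread along the horizontal axis from 0.44 to 5.01 and stay between -0.19 and 1.01 on the vertical one.

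Between the organs of WT mice, 3 members were at least 2-fold higher on thymus than on spleen (Anxa2, Anxa4 and Lgals3), beside 6.54% of 12482 genes, and 0 were lower. The count was 2 with the median over each gene's probes, where Anxa4 stood at 0.94. The members' median was 0.26, against -0.08 over all genes. Between the organs of deltaDC mice, 7 members were at least 2-fold lower on thymus, beside 6.15% of 12803 genes, and their median was -2.20 against -0.02. The lower ones ran from S100a10 (3.80-fold) through S100a11 (4.44-fold), Lgals1 (4.72-fold), Anxa1 (7.37-fold) and Lgals3 (9.19-fold) to S100a6 (10.8-fold), with S100a4 at -2.93 ± 0.06. Anxa2 (-0.48 ± 0.06), Anxa4 (-0.05 ± 0.09) and Anxa5 (-0.38 ± 0.06) were within 2-fold. These comparisons share the spleen arrays with the contrast that chose the members.

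S100a4, S100a6, S100a10 and S100a11 lie on chromosome 3, where most S100 genes form a cluster. The S100a4 and S100a6 probes start 8.25 kb apart (mm9), those of S100a11 and S100a10 are 38.4 kb apart, and 2912 kb separate the pairs. S100a5, which lies between S100a4 and S100a6, was not above background on any array. S100a3, on the other side of S100a4, had signals of 74.8 (WT) and 104 (deltaDC) in spleen, and 41.7 (WT) and 23.6 (deltaDC) in thymus, a spleen difference of 0.48 ± 0.18. Further along, S100a13 differed by 0.74 ± 0.06, S100a14 by -0.14 ± 0.44 and S100a16 by -0.48 in spleen. S100a2 differed by 0.28, and S100a1, at the far end of the cluster, by 1.01. On the other side, S100a8 at 55.6 kb and S100a9 at 78.4 kb were at least 86.0-fold and at least 374-fold higher on deltaDC spleen, by the bounds described below. High deltaDC spleen signal was thus found in some S100 genes of the cluster and not in others. Of 5 genes of other families within 200 kb of that pair, 3 were measured in spleen and 0 differed 2-fold, namely Ilf2 (-0.23), Snapin (-0.05) and Chtop (-0.05), which were picked by position. Over all genes measured in spleen, 8.42% differed 2-fold.

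**Figure D4:**
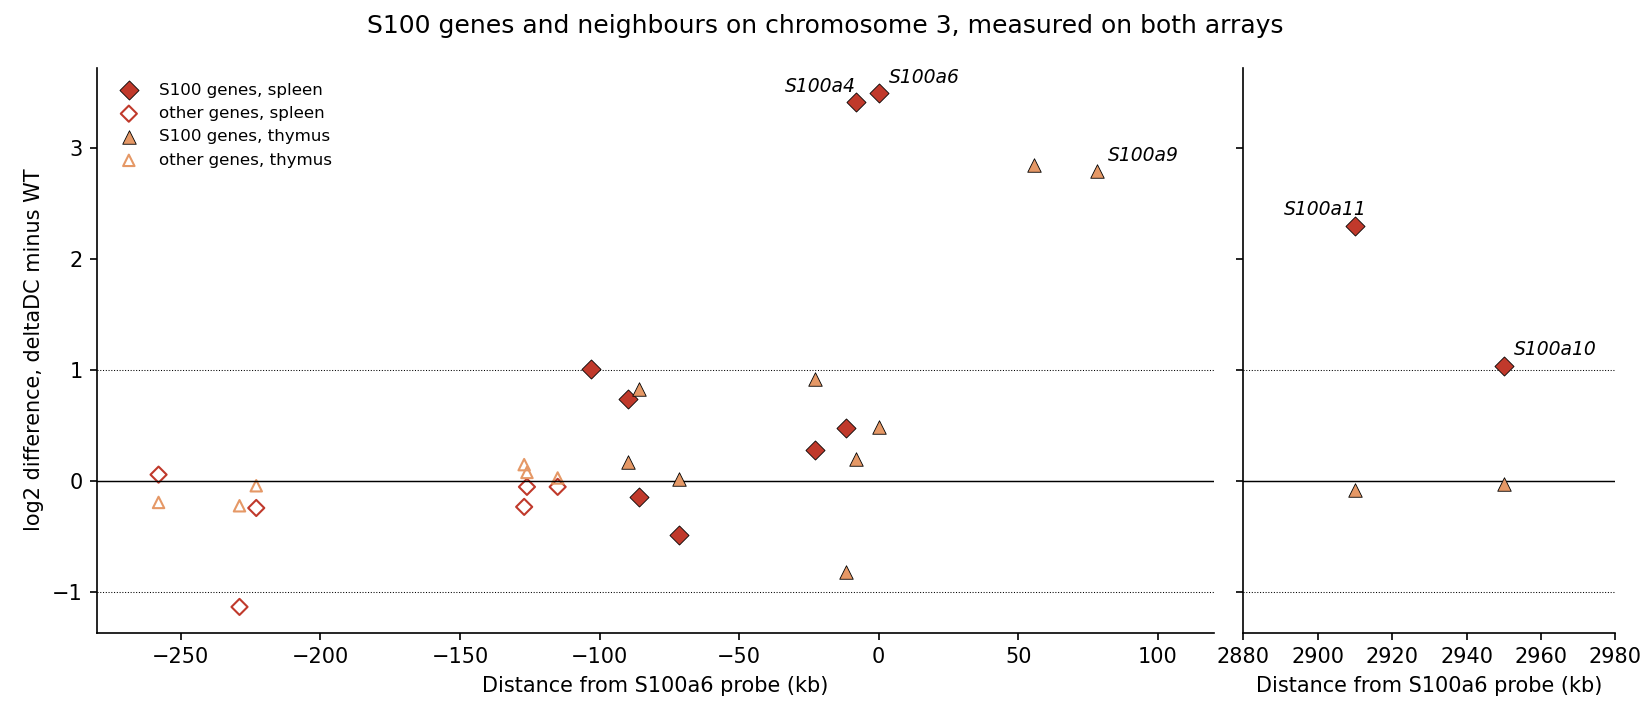
Genotype difference (deltaDC minus WT, log2) against the distance from the S100a6 probe in kb, in spleen (diamonds) and thymus (triangles), for S100 genes (filled) and other genes (open) measured on both arrays. In spleen S100a4 and S100a6 stand at 3.41 and 3.49 and the remaining S100 genes of the left panel at 1.01 or less. S100a8 and S100a9 appear for thymus alone, since they were not above background on WT spleen.

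Of 28 other genes listed for the 3 families, 27 were on the array and 8 were above background on none of the arrays. The list is not the whole of the families: it leaves out, for example, S100a2 and S100a7l2, which are on the array. In spleen, 15 were measured and 3 of them passed 2-fold upward with deltaDC, S100a1 (1.01 ± 0.27), Lgals7 (54.9 on WT and 220 on deltaDC) and the galectin-like gene Lgalsl (1.36 ± 0.11). S100z was lower (-1.35 ± 0.34). The median of the 15 was 0.38. Of all 12529 genes measured in spleen, 6.42% were higher on deltaDC and 8.42% differed 2-fold in either direction. The galectins Lgals4 (-0.29 ± 0.07), Lgals8 (-0.11 ± 0.07) and Lgals9 (0.05 ± 0.07), and the annexins Anxa6 (0.64 ± 0.07) and Anxa11 (0.38 ± 0.06), were bright and within 2-fold.

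S100a8 and S100a9, which together make calprotectin in neutrophils, were not well above background on WT spleen. Their scaled signals on deltaDC spleen were 1486 and 6471, at least 86.0-fold and at least 374-fold above the lowest signal that counts as well above background on WT spleen. Anxa8 had a bound of at least 2.04-fold. In thymus S100a8 read 18.1 on WT and 130 on deltaDC (2.85 ± 0.39) and S100a9 read 90.3 and 625 (2.79 ± 0.14). They were the only other family genes of 16 measured there to pass 2-fold, beside 1.60% of 13039 genes, and the median was 0.10.

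Among 16 receptors and ligands of these proteins, 11 were measured in spleen, 2 were higher on deltaDC and 1 was lower. Of all 12529 genes measured in spleen, 6.42% were higher on deltaDC and 8.42% differed 2-fold in either direction. Cd44, a sugar-bearing adhesion receptor and activation marker, read 2304 (WT) and 4946 (deltaDC) in spleen, and 2513 (WT) and 2157 (deltaDC) in thymus (spleen 1.10 ± 0.07). Itgb1, the integrin beta chain that galectins bind, differed by 1.32 ± 0.07. Plat, the plasminogen activator that the Anxa2 complex binds, was dim at 53.5 on WT and 19.3 on deltaDC spleen, and differed by -1.47 ± 0.33. Havcr2, a receptor of Lgals9, was above background on deltaDC but not on WT spleen, with a bound of at least 5.85-fold. Ptprc, which encodes CD45, differed by 0.01 ± 0.07 and Lgals3bp by 0.83 ± 0.07. In thymus 0 of 11 differed 2-fold, beside 1.60% of 13039 genes, the furthest being Cd7 at 0.84 ± 0.07.

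Of 15 intracellular partners, 12 were measured in spleen, 1 was higher on deltaDC and 1 was lower. Beside them, 6.42% of all 12529 genes measured there were higher and 8.42% differed 2-fold in either direction. The higher partner was Vim, the intermediate filament vimentin (1.13 ± 0.06). The lower one was the potassium channel gene Kcnk3 (-1.37 ± 0.26), whose product S100a10 traffics. Myh9, the myosin that S100a4 binds, differed by -0.14 ± 0.07, and Cacybp by -0.17 ± 0.07. Ahnak, which the Anxa2 and S100a10 complex holds at the membrane, read 7420 (WT) and 11993 (deltaDC) in spleen, and 4504 (WT) and 2816 (deltaDC) in thymus. It was thus higher on the deltaDC array in spleen (0.69 ± 0.07) and lower in thymus (-0.68 ± 0.07), both within 2-fold. Of the intracellular partners 0 of 13 measured in thymus differed 2-fold, beside 1.60% of 13039 genes.

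The sorted cells carried T cell and Treg markers on every array. The 6 T cell markers on the array were measured on all, and 0 of 6 differed 2-fold in either genotype comparison. Over all genes measured, 8.42% did in spleen and 1.60% in thymus. For the 7 Treg markers the same count was 0 of 7, with a median of -0.10 in spleen. Il2ra, which encodes the sorted protein CD25, was the Treg marker furthest from 0 in spleen, at 28920 on WT and 15521 on deltaDC (-0.90).

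Several lists of markers of other cells also held genes higher on deltaDC than on WT spleen, where 6.42% of the 12529 genes measured were. NK cell markers were higher on deltaDC spleen in 5 of 7 measured, with 1 more by bound. Their summed scaled signal was 4119 (WT) and 30622 (deltaDC) in spleen, and 13490 (WT) and 16074 (deltaDC) in thymus. Without the brightest, Nkg7, these sums were 1532, 7023, 6170 and 8542. Most of both thymus sums then came from Gzma alone, which read 385, 1748, 5438 and 7355 in that order. Like Gzma, Klra8 read more on deltaDC thymus than on deltaDC spleen, whereas Klrb1c, Klrd1, Eomes, Prf1 and Ncr1 read less. Markers of innate lymphoid cells, natural killer T cells and gamma-delta T cells, 1 list, were higher on deltaDC spleen in 6 of 7. Their sums were 596, 5823, 1854 and 1620 in that order, or 560, 4352, 540 and 705 without the brightest, Cd163l1. For neutrophils 1 of 3 measured was higher and 6 more by bound. Only 3 of these 10 markers were above background on WT spleen, against 9 on deltaDC spleen and 7 on each thymus array. Their sums without Csf3r, a probe bright on all arrays, were 172, 10006, 942 and 2463. Macrophage and monocyte markers were higher in 2 of 7, with sums of 4792 on WT and 5627 on deltaDC spleen, or 1547 and 2548 without the brightest, Itgam. Lyz2 was 1 more, at 17.7 on WT, not above background, and 210 on deltaDC spleen. All 3 measured erythroid markers were higher, with 1 more by bound and sums of 2032 and 5712, and 0 of 4 measured B cell markers were. Of 8 dendritic cell markers Xcr1, Clec9a and Cd209a were not above background on either spleen array, 1 of 2 measured was higher and 2 more by bound. The dendritic cell sums without Siglech, again bright on all arrays, were 162 and 756 in spleen and 597 and 548 in thymus.

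In thymus, neutrophil markers were higher on the deltaDC array in 5 of 7 measured, B cell markers in 5 of 6 with 1 more by bound, and erythroid markers in 3 of 3. Of all 13039 genes measured there, 0.928% were. The B cell sums without Cd79b were 1355 on WT and 4776 on deltaDC thymus, against 191 and 182 in spleen. Macrophage and monocyte markers were higher there in 2 of 7, Lyz2 (176 on WT and 393 on deltaDC) and Fcgr1 (21.3 and 50.2), with sums of 3611 and 4160. The list with gamma-delta T cells had 1 of 7 and the NK list 1 of 7. Of the dendritic cell markers 0 of 5 measured were higher, and Cd209a was lower by a bound, at 119 on WT and 12.6, not above background, on deltaDC. Cells of several of these types express Anxa1, Lgals3 and S100 genes. The part of these markers in the members' differences was not tested.

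Genes with a profile like the members' were sought over the 4 arrays, from log2 signals centred on each gene's own mean. The median profile of the members was -0.91 (WT) and 1.63 (deltaDC) in spleen, and -0.56 (WT) and -0.36 (deltaDC) in thymus. S100a11 (root mean square distance 0.16) and Lgals1 (0.22) were the members closest to it, and Lgals3 (0.89), Anxa4 (0.85) and Anxa5 (0.81) the furthest. Outside the members, among 2367 genes compared, the 8 closest were Cx3cl1 (0.119), Hip1 (0.134), Carhsp1 (0.145), Lrrk1 (0.160), Appl2 (0.162), Dkkl1 (0.182), Cela1 (0.182) and Rbm47 (0.185). Cx3cl1, the chemokine fractalkine, read 94.3 (WT) and 551 (deltaDC) in spleen, and 132 (WT) and 123 (deltaDC) in thymus. Carhsp1, which encodes an RNA-binding protein, read 417, 1905, 444 and 493 in that order.

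All members had their highest signal on one array, though Anxa2, Anxa4 and Anxa5 by under 2-fold. The promoters of those with an entry were therefore read from RefSeq (GRCm38.p6), from 250 bases before to 50 after the start. There were 9 entries for 8 members, Anxa4 having 2, and S100a10 and Lgals1 were not matched. The letters of 8 motifs were searched on both strands, and overlapping matches of different motifs were each counted. The AP-1 motif TGANTCA, which Fos and Jun proteins bind in activated T cells, was in the promoters of Anxa2 and S100a11, beside 7.81% of 32851 promoters. S100a11 held it at -136 to -130 and at -38 to -32 from the start, and Anxa2 at -95 to -89. The TATA box TATAAA was in Anxa1, Anxa2 and S100a4, beside 13.6% of promoters, at -32 to -27, -17 to -12 and -31 to -26. The Runx motif TGTGGT was in S100a6 alone, at 3 places, beside 16.8% of promoters.

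The Sp1 motif GGGCGG was in Anxa2, Anxa4, Lgals3 and S100a11 (35.7% of promoters), and the KLF motif CCNCACCC in Anxa2, Anxa4 and Lgals3 (16.6%). The NF-kB motif was in Anxa4 (1.47%). All matches of Anxa4 lay in 1 of its 2 entries, those of Sp1 and KLF after the start. The T-box motif GGTGTGA (3.98%) and the cAMP response element TGACGTCA (1.79%) were in none of the 9. No motif was found in all of the members' entries. These are matches of letters, and binding was not measured. The 250 bases before the start are shown for the 4 genes with an AP-1 or TATA match, which the capitals mark.
S100a11 at chr3:93520246-93520495 (GRCm38.p6, plus strand): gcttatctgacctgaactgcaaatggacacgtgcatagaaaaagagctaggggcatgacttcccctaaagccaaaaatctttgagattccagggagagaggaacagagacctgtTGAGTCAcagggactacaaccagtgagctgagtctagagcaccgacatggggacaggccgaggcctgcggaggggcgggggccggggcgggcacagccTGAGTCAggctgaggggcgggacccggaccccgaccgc
Anxa2 at chr9:69453433-69453682 (GRCm38.p6, plus strand): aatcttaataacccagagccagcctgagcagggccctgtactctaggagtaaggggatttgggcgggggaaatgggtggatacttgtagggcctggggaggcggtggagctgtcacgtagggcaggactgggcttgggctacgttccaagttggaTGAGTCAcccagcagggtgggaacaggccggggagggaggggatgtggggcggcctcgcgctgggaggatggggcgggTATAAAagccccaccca
S100a4 at chr3:90603520-90603769 (GRCm38.p6, plus strand): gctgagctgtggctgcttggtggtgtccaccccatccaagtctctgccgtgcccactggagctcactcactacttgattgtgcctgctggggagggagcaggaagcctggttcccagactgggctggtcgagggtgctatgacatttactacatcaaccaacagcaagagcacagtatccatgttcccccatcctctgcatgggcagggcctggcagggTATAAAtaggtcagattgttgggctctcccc
Anxa1 at chr19:20390672-20390921 (GRCm38.p6, minus strand): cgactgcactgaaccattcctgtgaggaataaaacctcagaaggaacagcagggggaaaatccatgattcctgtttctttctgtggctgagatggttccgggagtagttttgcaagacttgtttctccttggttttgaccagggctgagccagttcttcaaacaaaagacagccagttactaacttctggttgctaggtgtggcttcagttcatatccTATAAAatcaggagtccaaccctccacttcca
The 4 genes differed in their profiles over the arrays. S100a11 and S100a4 were high on deltaDC spleen alone, and Anxa2 was low on WT spleen alone. Anxa1, by its brighter probe, stood at a different level on each array.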

How the data were processed

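RNA of pooled, sorted CD4+CD25+ cells was labelled with Cy3 from 10 ng and hybridised to 4 one-colour arrays on 1 slide, 1 for each group, per the labels' protocols. The deposited scanner files hold fluorescence intensity, background-subtracted on each array by Agilent Feature Extraction 10.7.3.1, per the file headers. The authors also deposited a matrix of quantile-normalized log2 values, per the file headers. Its columns had medians of 4.10, 4.11, 4.15 and 4.10 and each had its highest Pearson r across spots, 0.997, with the array of the same label. Its direction is thus known, but its offset and any rescaling are not.

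Outlier spots (110 to 168 an array) and control spots were removed, intensities were set to log2, and each array's 75th percentile (340.0, 391, 407 and 418) was subtracted. Repeated spots were averaged, and a gene's brightest probe represented it. Probes were named by accession (27509) or symbol (3549) in a RefSeq table, and 24623 stayed unnamed. The spot error came from the 41 repeated probes nearest in signal. Where only 1 array was above background, the bound was the bright signal against the higher of the dim one and the other array's lowest signal above background.

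All members and their probes were named, with other family genes, partners and markers from lists. The members and the lists were chosen with earlier results of these data known. The alternatives were normexp background correction (limma 3.58.1, offset 50), quantile normalization, the median of probes above background, the authors' matrix, the median over a gene's probes, no filter on dim probes and a 1.5-fold threshold. The calling of 2-fold differences was tested on genes of these data moved by known amounts, with the spot error added as noise. None of these amounts was close to 2-fold, so calls near that limit were not tested. The noise held no variation between mice, pools or labelling reactions.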

Additional observations from a re-analysis of the deposited data

Results flagged for a closer look

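Lgals1 was the one member beyond 2 spot errors in both genotype comparisons with opposite signs, at 2.19 ± 0.07 in spleen and -0.19 ± 0.06 in thymus (deltaDC minus WT, log2). With 1 array per group the difference between the organs was not tested. Under the 5 alternatives the thymus value ran from -0.34 to -0.18.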

How the results depend on the processing

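No member changed its sign in spleen under any of 5 alternatives, and their spleen values ran from 0.36 to 5.01. Anxa4 ran from 0.60 to 1.55, the lowest with the median over its probes, 1 of which is dim; this setting took the members higher in spleen from 9 to 8 and those higher on WT thymus than WT spleen from 3 to 2. Values near 0 changed sign for Anxa2, Anxa4, Anxa5 and S100a10 in thymus, for Anxa5 between WT organs and for Anxa4 between deltaDC organs. The count of members higher in thymus, 1, was 0 with normexp and with the median over probes, and 2 at 1.5-fold (Anxa1 and Lgals3). Members lower on WT thymus than WT spleen numbered 1 at 1.5-fold (S100a10) instead of 0. Without the filter on dim probes, other family genes higher on deltaDC numbered 7 instead of 3 in spleen and 4 instead of 2 in thymus. With normexp, the 3 higher in spleen became 2 and the 1 lower became 0. No scaling moved the median of all genes by over 0.1. Spot SDs were 0.105 to 0.125 at a signal of 100 and 0.0394 to 0.0519 at 10000, so dim genes such as S100a14 are the least precise. One array per group leaves the spread between mice unknown.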

Other observations

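Between the deltaDC organs, 7 of 17 measured other family genes were at least 2-fold lower on thymus, beside 6.15% of 12803 genes. The median of the 17 was -0.79, against -0.02 over all genes measured. The lower ones were S100a8 (-3.51 ± 0.11), S100a9 (-3.37 ± 0.08), S100a3 (-2.14 ± 0.30), Lgals7 (-1.72 ± 0.17), S100a1 (-1.62 ± 0.33), Lgalsl (-1.06 ± 0.10) and S100a13 (-1.01 ± 0.06). Plaur, the urokinase receptor, went the other way, at 1.20 ± 0.13. In WT mice Lgals9 was 1.56-fold and Plaur 1.95-fold higher on thymus, both under 2-fold.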
